A study of Mus musculus with 3 samples.

Results

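Binding of the transcription factor Tcf1 (gene Tcf7) was profiled by ChIP-seq in regulatory T (Treg) and conventional CD4 T cells, and 336 Tcf1 peaks that lay between genes in the Treg list without a counterpart in the conventional list are described here. They were chosen by position from the deposited lists. A Treg peak on chromosomes 1 to 19 was taken when it overlapped no conventional peak and no conventional midpoint lay within 1000 bp, and when its own midpoint lay outside every annotated gene span and more than 1000 bp from every gene end. These intergenic Treg-only peaks are 336 of 3402 Treg peaks and of 7921 peaks in both lists together. Of the 3290 Treg peaks on chromosomes 1 to 19, 1330 (40.4%) had no conventional counterpart, and 336 of those 1330 (25.3%) lay between genes. The share between genes was 15.2% among shared Treg peaks (290 of 1903) and 13.9% among conventional-only peaks (348 of 2499). These shares come from the rule that chose the peaks and are given as a description.

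Both cell types were sorted from spleens of wild type Foxp3-Cre-GFP reporter mice, 8 to 10 weeks old. Conventional cells were TCRb+, CD4+, CD25- and GFP-, and Treg cells were TCRb+, CD4+, CD25+ and GFP+. Each type was represented by 1 library immunoprecipitated with antiserum against Tcf1, and the number of mice behind a library is not known here. Another library, of CD4 T cells from CD4-Cre+ Tcf1 fl/fl mice that lack Tcf1, was not analysed here. One label of the conventional sample calls its cells effector cells. Peak positions do not measure expression, so the sort cannot be checked against marker genes in these lists. Each list gives only chromosome, start and end, so read depth and peak height are unknown. With 1 library a cell type, every test below compares classes of peaks in these libraries and not cell types, peaks of 1 library are not replicates, and intervals cover counting error only.

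Tcf1 binds DNA through an HMG box, at TCF/LEF sites, and bends it. With its relative Lef1 it acts in the Wnt pathway, where beta-catenin turns it into an activator and Tle corepressors into a repressor, and it sets up T cell identity in the thymus. In mature CD4 T cells it supports naive and memory states and follicular helper differentiation, and in Treg cells it is known to restrain effector programmes. Sites between genes can be enhancers that act on genes at a distance, so the nearest gene named below is a position and not a target.

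Intergenic Treg-only peaks lay farther from protein-coding genes than the other classes of peaks between genes. Their midpoints were a median of 44268 bp from the nearest protein-coding gene span (interquartile range 12873 to 145818 bp, from 1020 to 2124198 bp). For conventional-only peaks between genes, chosen by the same rule from the other list, the median was 16210 bp (5281 to 47889 bp). For shared Treg peaks between genes it was 19406 bp (5627 to 54309 bp). A distance over 100 kb was found for 114 of the 336 intergenic Treg-only peaks, or 33.9% (95% Clopper-Pearson interval 28.9% to 39.3%). The share was 13.8% (10.3% to 17.9%) for the conventional-only class and 14.5% (10.6% to 19.1%) for the shared class. The differences were 20.1 percentage points (95% Newcombe interval 13.8 to 26.3, two-sided Fisher's exact adjusted p = 8.52e-09) and 19.4 points (12.8 to 25.8, adjusted p = 1.38e-07). Adjusted p-values here and below are Benjamini-Hochberg values over 14 Fisher's exact tests. To the nearest gene of any type the median distance was 14267.5 bp for intergenic Treg-only peaks. It was 7721.5 bp for conventional-only and 7698.5 bp for shared peaks between genes.

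**Figure D1:**
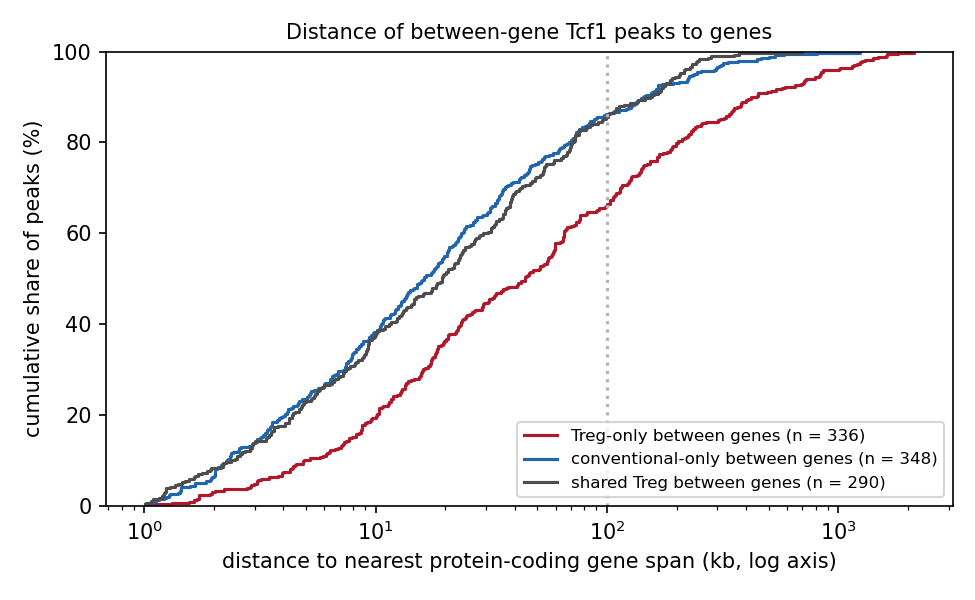
Cumulative share of peaks (vertical axis, %) by distance from peak midpoint to the nearest protein-coding gene span (horizontal axis, kb, log scale) for 3 classes of between-gene peaks, with a dotted line at 100 kb. The curve of the 336 intergenic Treg-only peaks lies to the right of both others, and 33.9% of them lie beyond the dotted line against 13.8% and 14.5%.

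The peaks also sat in longer stretches without any annotated gene. The gap between the flanking gene spans, all gene types counted, had a median of 69999 bp, against 35878 bp for conventional-only and 35689 bp for shared peaks between genes. Gaps over 200 kb held 63 of 332 intergenic Treg-only peaks (19%, interval 14.9% to 23.6%), with 4 peaks left out that had no gene on 1 side. They held 22 of 348 conventional-only peaks (6.32%, difference 12.7 points, Fisher's exact adjusted p = 1.99e-06) and 16 of 290 shared peaks (5.52%, difference 13.5 points, adjusted p = 1.22e-06). Both distance measures kept their direction and their call among peaks wider than the median of their list, 100 of the intergenic Treg-only peaks.

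When genes of every type were counted, the nearest gene was not protein-coding for 219 of 336 peaks (65.2%, interval 59.8% to 70.3%). The share was 50.6% for conventional-only peaks (difference 14.6 points, Fisher's exact adjusted p = 0.000253) and 54.8% for shared peaks (difference 10.4 points, adjusted p = 0.0112). Pseudogenes, leaving out those annotated as transcribed, were nearest to 86 peaks (25.6%), against 13.5% of conventional-only and 16.2% of shared peaks, while long noncoding RNA genes were nearest to 104 (31.0%), against 34.8% and 34.1%. These splits by gene type were made after the values were seen and were not tested. Of all 49943 annotated gene spans, 21887 were protein-coding. A noncoding nearest gene is tied to the distance from protein-coding genes given above, so it is not a separate feature. Among peaks wider than the median of their list neither difference in the noncoding share passed the threshold (Fisher's exact adjusted p = 0.199 for both), and the one with shared peaks did not pass with a 5000 bp margin at gene ends (adjusted p = 0.288) or with protein-coding genes alone defining what lies between genes (adjusted p = 0.103).

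The 5 peaks farthest from a protein-coding gene lay in long stretches without protein-coding genes. The most remote one (chromosome 1, 102644013 to 102644271, 259 bp wide) was 2124198 bp from Cdh20, which encodes a cadherin adhesion molecule, and 2153543 bp from Cntnap5b on its other side. Another peak of the same stretch (102091957 to 102092392, 436 bp wide) was 1601575 bp from Cntnap5b. On chromosome 2 a peak (47009215 to 47009573) lay 1804715 bp from Acvr2a, an activin receptor, and 1891952 bp from Zeb2, a zinc finger repressor. The others were 1625017 bp from Igfbp7 (chromosome 5, 79032929 to 79033196) and 1485768 bp from Pcdh17 (chromosome 14, 82957666 to 82957924). All 5 were over 1 Mb from any conventional peak midpoint, as were 79 of the 336 peaks (23.5%), compared with 71 of 994 Treg-only peaks at or in genes (7.14%). Distance to a conventional peak was part of the rule, so that contrast is a description.

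Intergenic Treg-only peaks had fewer close neighbours. Another Tcf1 peak of either list lay within 10 kb of 46 of them (13.7%, interval 10.2% to 17.8%). For conventional-only peaks between genes the share was 25.6% (difference -11.9 points, 95% Newcombe interval -17.7 to -5.95, Fisher's exact adjusted p = 0.000224). For Treg-only peaks at or in genes it was 21.0% (difference -7.34 points, -11.5 to -2.59, exact adjusted p = 0.00416). Of the intergenic Treg-only peaks, 29 had a conventional peak within 10 kb, 15 a shared Treg peak, 14 another peak of their own class and 6 a Treg-only peak at or in a gene. Distance to the other list was part of the rule, which left out partners within 1000 bp in every class compared. These differences therefore rest in part on a value that the rule used. Within 50 kb the differences were -27.1 and -18.0 points. Among peaks wider than the median of their list, with narrow neighbours also removed, they were -1.70 and -1.36 points and did not pass the threshold (exact adjusted p = 0.873 for both). With protein-coding genes alone defining what lies between genes they were -5.47 and -2.16 points and did not pass it either (exact adjusted p = 0.0533 and 0.445).

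The protein-coding genes next to these peaks less often carried a shared Tcf1 peak than those next to conventional-only peaks between genes. A peak was assigned to its nearest protein-coding gene when that gene was within 100 kb, which gave 222 peaks at 208 genes, or 1.01% of the 20665 protein-coding genes on chromosomes 1 to 19. For 141 of the 208 genes (67.8%) the intergenic Treg-only peaks were the sole peaks of either list assigned to them, against 127 of 276 genes (46.0%) next to conventional-only peaks between genes. Among the 208 genes, 60 also had a conventional peak and 43 a shared Treg peak. Of all 20665 protein-coding genes, 3516 (17.0%) had a conventional peak assigned. Counted by peak, 46 of 336 (13.7%) had an assigned gene with a shared peak, against 102 of 348 conventional-only peaks between genes (29.3%, difference -15.6 points, 95% Newcombe interval -21.6 to -9.51, Fisher's exact adjusted p = 1.99e-06). The 114 and 48 peaks of these classes without a gene within 100 kb were counted as having none. This difference therefore includes the difference in distance given above. Among assigned peaks alone the shares were 20.7% and 34.0% (exact adjusted p = 0.00594). Treg-only peaks at or in genes gave 15.5%, and the difference of -1.80 points (-5.85 to 2.80) did not pass the threshold (exact adjusted p = 0.517). Among peaks wider than the median of their list, with narrow shared peaks also removed, the difference from conventional-only peaks was -7.62 points and did not pass it (exact adjusted p = 0.274).

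**Figure D2:**
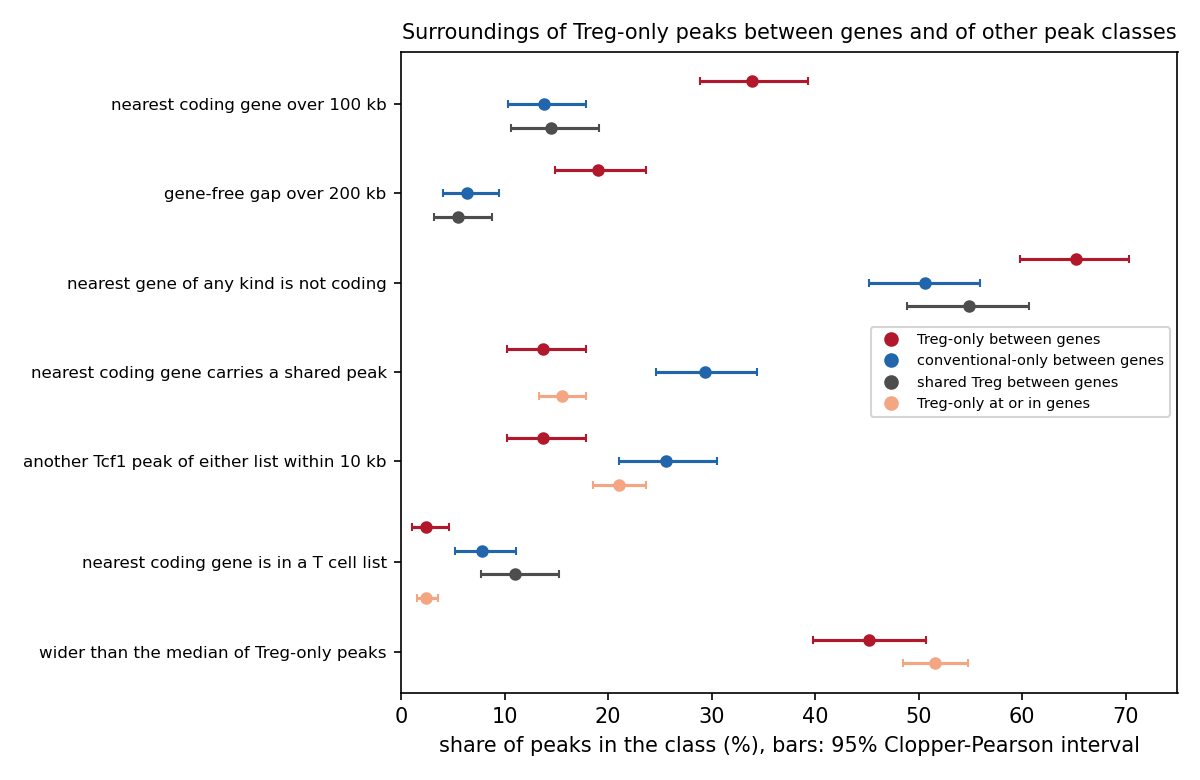
Share of peaks with each feature (horizontal axis, %, points with 95% Clopper-Pearson intervals) in intergenic Treg-only peaks and in the classes each was compared with. Intergenic Treg-only peaks are highest for distance over 100 kb (33.9%) and gene-free gaps over 200 kb (19%), and at or near the lowest share for neighbouring peaks (13.7%) and T cell genes (2.38%).

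Few intergenic Treg-only peaks lay next to genes of T cell biology. In 9 T cell lists joined, with 240 genes on chromosomes 1 to 19, 8 genes had such a peak (3.33%, with 1.01% of all protein-coding genes as background), while 113 (47.1%) had a Treg peak of any class, against 2640 of all 20665 protein-coding genes (12.8%). The 8 peaks are 2.38% of 336 (interval 1.03% to 4.64%). The share was 11% for shared Treg peaks between genes (32 of 290, difference -8.65 points, 95% Newcombe interval -12.9 to -4.82, Fisher's exact adjusted p = 2.44e-05). It was 7.76% for conventional-only peaks between genes (27 of 348, difference -5.38 points, -8.87 to -2.11, exact adjusted p = 0.00236). Among peaks with a gene within 100 kb the shares were 3.6%, 12.9% and 9.0% in that order. The difference from shared peaks passed the threshold there (exact adjusted p = 0.00535) and that from conventional-only peaks did not (adjusted p = 0.0942). It did not pass among peaks wider than the median of their list either (exact adjusted p = 0.199). Treg-only peaks at or in genes had 2.41%, and the difference of -0.03 points (-1.68 to 2.35) did not pass the threshold (exact adjusted p = 1).

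Among 34 Treg signature genes, 3 had an intergenic Treg-only peak (8.82%, with 1.01% of all protein-coding genes as background). Genes of the same list were assigned 4 conventional-only and 2 shared Treg peaks between genes, and 3 Treg-only peaks at or in genes. Il10 encodes the suppressive cytokine interleukin 10. Its peak (chromosome 1, 130993485 to 130993835, 351 bp wide) lay 26185 bp from the gene and 48203 bp from Il19, and no other peak of either list was within 150 kb of Il10. The long noncoding RNA gene Gm41952 was closer to the peak, at 21128 bp. Ccr6, a chemokine receptor of mucosal and Th17-type T cells, had a peak 8196 bp upstream of its span (chromosome 17, 8227681 to 8228010, 330 bp). The conventional list had no peak assigned to Ccr6, and its nearest midpoint was 62271 bp from that peak. Tigit encodes an inhibitory receptor, and its peak (chromosome 16, 43709156 to 43709622, 467 bp) lay 44264 bp upstream, almost midway to Drd3 at 44626 bp. Tigit also had 1 shared peak at its end (43664078 to 43664546 in the Treg list).

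Signalling and activation genes had single peaks, 1 per list, where 1.01% of all protein-coding genes had one. Cd28, which encodes the main costimulatory receptor, lay 3798 bp from an intergenic Treg-only peak (chromosome 1, 60777005 to 60777309, 305 bp) in the interval between Cd28 and Ctla4, the latter 131868 bp away. The long noncoding RNA gene 2310016D23Rik was closer to that peak, at 1304 bp. No other Tcf1 peak of either list was assigned to Cd28, which was 1 of 30 T cell receptor signalling genes. Bhlhe40, a transcription factor induced by activation, lay 1722 bp from a narrow peak (chromosome 6, 108668526 to 108668769, 244 bp), 1 of 27 activation factor genes. The conventional list had no peak assigned to Bhlhe40, and its nearest midpoint was 97234 bp away. Cd69, an early activation antigen that holds T cells in tissues, had a peak 9197 bp from the gene (chromosome 6, 129284410 to 129284735, 326 bp), 1 of 21 adhesion and chemotaxis genes. It also had 1 shared peak.

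Of 25 naive and memory T cell genes, 2 had an intergenic Treg-only peak (8%), and both genes also had a shared peak assigned. Ets1, a transcription factor needed for T cell quiescence and survival, had a peak 44220 bp away (chromosome 9, 32591825 to 32592218, 394 bp), between Ets1 and Fli1, which lay 48589 bp off. Ets1 had 4 Treg and 3 conventional peaks assigned, 1 of the Treg peaks shared. Il6st, the gp130 signalling chain of interleukin 6 receptors, had a peak 4273 bp downstream (chromosome 13, 112510987 to 112511279, 293 bp), with 2 shared Treg peaks on the far side of the gene. None of the 33 Wnt pathway, 30 helper lineage, 19 survival or 21 E protein, Id and related factor genes had an intergenic Treg-only peak assigned, where 1.01% of all protein-coding genes had one. A Treg peak of any class was assigned to 10, 11, 8 and 7 of them in that order, with 12.8% of all protein-coding genes as background.

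Lists of other cell types gave 2 genes, 5.56% of the B cell list and 5% of the myeloid list, each resting on 1 gene. The share was 1.01% over all protein-coding genes and 3.33% over the joined T cell lists. Cr2, the complement receptor of B cells, lay 64852 bp from a peak (chromosome 1, 195241611 to 195241853, 243 bp), 1 of 18 B cell genes. Fcgr3, an immunoglobulin receptor of myeloid cells, lay 18175 bp from a peak (chromosome 1, 171083892 to 171084288, 397 bp), 1 of 20 myeloid genes, and a tRNA gene was closer at 2144 bp. None of 17 CD8 and cytotoxic, 17 liver or 19 neuron genes had one.

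**Figure D3:**
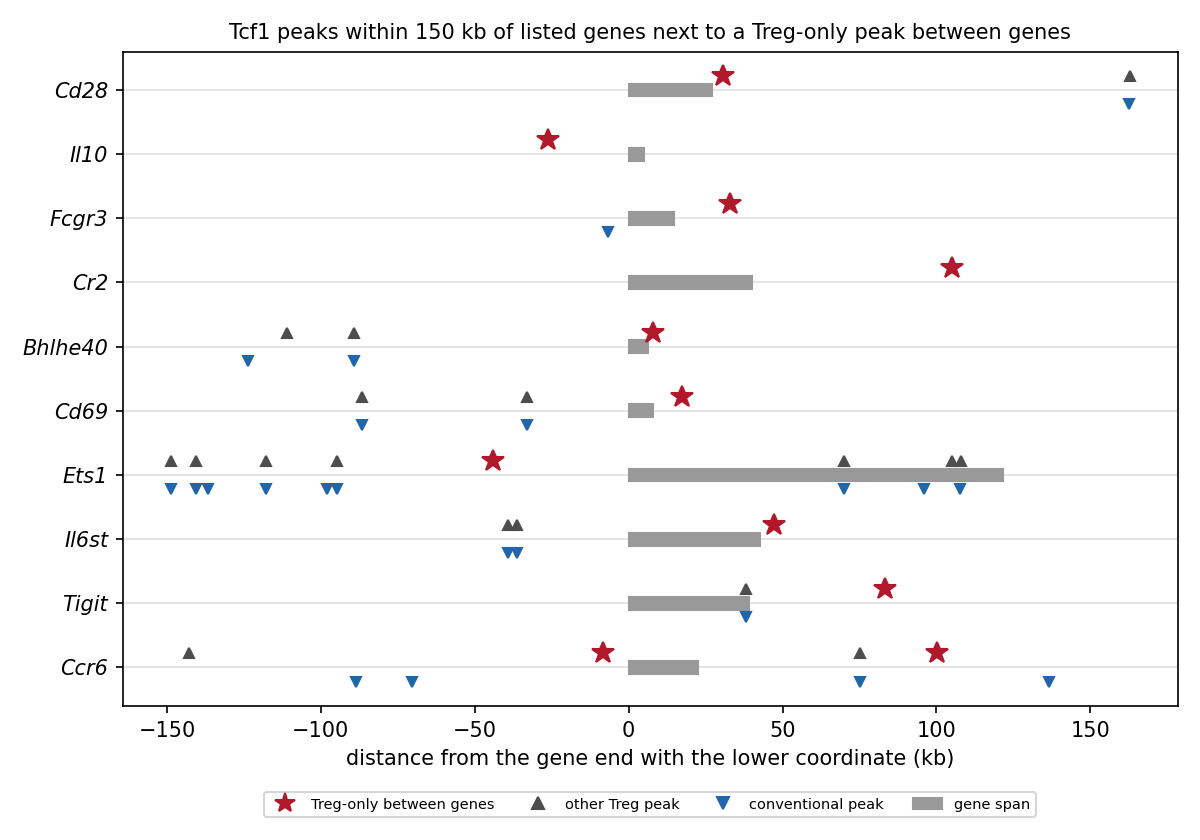
Positions of Tcf1 peaks (horizontal axis, kb from the gene end with the lower coordinate) within 150 kb of the 10 listed genes that had an intergenic Treg-only peak assigned, with gene spans as grey bars. Stars mark intergenic Treg-only peaks, upward triangles other Treg peaks and downward triangles conventional peaks, and Il10 and Cr2 show a star with no other peak in the window. The right star in the Ccr6 row is nearer to Prr18, at 4340 bp, and was assigned to that gene.

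Without a limit on distance, 25 of the 336 peaks (7.44%) had a gene of the T cell lists as 1 of their 2 flanking protein-coding genes. This count was not made for the other classes, so no excess can be read from it. Some of these genes were remote, such as Zeb2 at 3462101 bp from a peak on chromosome 2. One lay between Map3k7 and Bach2 (chromosome 4, 32138063 to 32138349), 100207 bp from Bach2, a repressor of effector differentiation, just past the 100 kb limit. Foxo1, a factor of T cell homing and quiescence, flanked 3 peaks at 108615, 490229 and 528429 bp. One of the 12 widest peaks (chromosome 1, 69231694 to 69232291, 598 bp) lay between Erbb4 at 123416 bp and Ikzf2, the Helios gene, at 299215 bp.

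Other genes of lymphocytes and immunity had a peak nearby, and they were selected with their values in view. Cd52, a lymphocyte surface glycoprotein, had a peak 1731 bp from its span (chromosome 4, 134096618 to 134096991, 374 bp), with a conventional midpoint 2131 bp from it. Rhoh, a GTPase of T cell receptor signalling, had a peak 4549 bp downstream (chromosome 5, 65901032 to 65901466), and Gbp5, an interferon-induced GTPase, one 3198 bp upstream (chromosome 3, 142493597 to 142493876). Conventional midpoints lay 3448 and 3742 bp from these peaks. Cish, a suppressor of cytokine signalling, had a peak 10302 bp downstream (chromosome 9, 107312928 to 107313245), and Il23r, the interleukin 23 receptor, one 10396 bp upstream (chromosome 6, 67502078 to 67502425). Dusp1, a phosphatase of MAP kinases, had a peak 23432 bp upstream (chromosome 17, 26531716 to 26532092), and it also had 2 shared Treg peaks.

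Besides the run on chromosome 8 described next, 5 protein-coding genes were nearest to 2 intergenic Treg-only peaks within 100 kb. Tnfrsf8, which encodes the activation receptor CD30, had both upstream at 4249 and 27027 bp (chromosome 4, 145319219 to 145319607 and 145342057 to 145342325), and no other Tcf1 peak of either list was assigned to it. Med13l, a Mediator kinase module subunit, had peaks at 29039 and 81962 bp on opposite sides of its span, and it also had 1 shared peak. Ppp4r3a, a phosphatase subunit, had 2 adjacent peaks at 58747 and 59894 bp (chromosome 12) and none in the conventional list. The others were the predicted genes Gm15319 and Gm40363. Gm40363 had 12 Treg and 7 conventional peaks in all, and its 2 intergenic Treg-only peaks lay 2571 and 1583 bp from a conventional midpoint.

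One dense run stood out on chromosome 8. Here 10 intergenic Treg-only peaks lay within 44536 bp (20662190 to 20706725), with widths of 245 to 1150 bp and a median of 366 bp. Their nearest protein-coding gene was the predicted gene Gm21119 (20614404 to 20646749), at 15593 to 59831 bp, and a gene-free gap of 175660 bp held them all. Within 500000 bp on either side lay 17 Treg and 2 conventional peaks, both conventional ones shared. The same window held 36 annotated genes, of which 16 were protein-coding, 9 of them alpha-defensin genes for antimicrobial peptides of the gut, and 14 were pseudogenes, transcribed ones included. The sources used here do not say how reads from duplicated sequence were treated, and its part in this run was not tested. No other run of 3 or more intergenic Treg-only peaks at most 20 kb apart was found, and 3 further runs had 2 peaks each. With the 10 peaks of the run included, chromosome 8 held the most intergenic Treg-only peaks, 32 or 16.2% of its Treg peaks. Without those 10 it would hold fewer than chromosome 1, which had 30 (14.6%). Chromosome 11 had the smallest share, 12 or 4.29%. Without the run every test kept its direction and its call except 2: the difference of -0.03 points in T cell genes from Treg-only peaks at or in genes became 0.04 points (exact adjusted p = 1), and the width difference below passed the threshold.

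**Figure D4:**
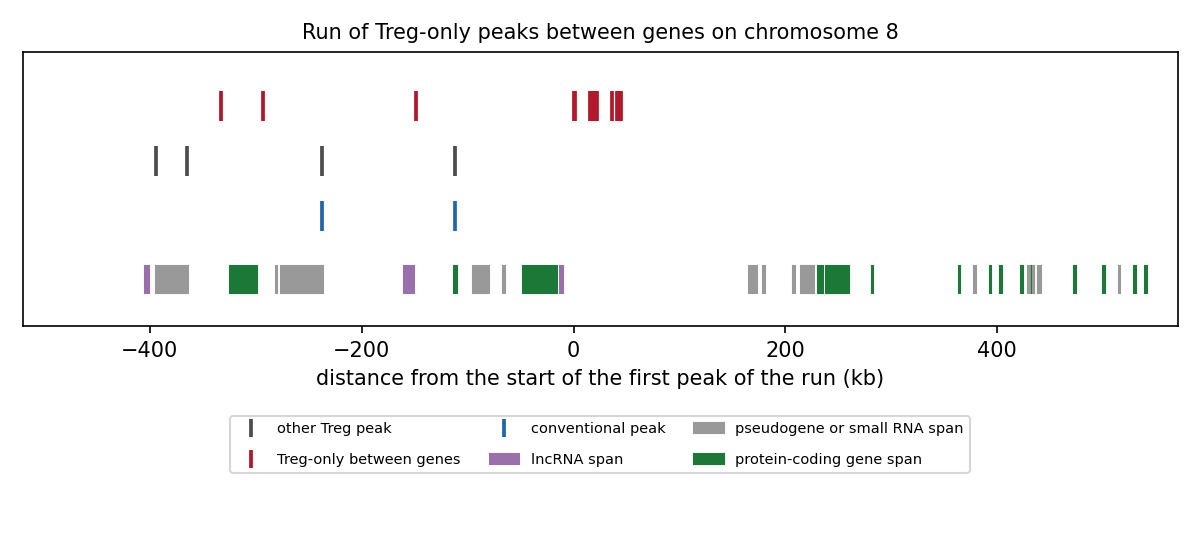
Peaks and annotated gene spans around the run on chromosome 8 (horizontal axis, kb from the start of its first peak), with intergenic Treg-only peaks in red, other Treg peaks in dark grey and conventional peaks in blue. The 10 red marks between 0 and 44.4 kb stand in a stretch without gene spans, and 3 further red marks lie to the left.

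Intergenic Treg-only peaks were narrow. Their median width was 308 bp (interquartile range 269 to 380 bp, from 240 to 1150 bp), against 324 bp for Treg-only peaks at or in genes and 386 bp for shared Treg peaks between genes. Of the 336 peaks, 106 were narrower than 279 bp, the width of the narrowest conventional peak, as were 292 of 994 Treg-only peaks at or in genes and 39 of 290 shared peaks between genes. With the Treg list split by width into 5 equal groups, intergenic Treg-only peaks made up 17.3% (interval 14.5% to 20.4%) of the narrowest peaks, then 13.8%, 10.2% and 6.99%, and 2.74% (1.63% to 4.29%) of the widest. As a share of the Treg-only peaks in each group they were 26.9%, 26.9%, 25.6%, 22.7% and 17.5%, a flatter series, since narrow Treg peaks were more often Treg-only, which the rule used. The test was therefore made within the Treg-only class. There 45.2% of intergenic peaks and 51.6% of peaks at or in genes exceeded the class median of 319.5 bp, and the difference of -6.37 points (95% Newcombe interval -12.5 to -0.19) did not pass the threshold (Fisher's exact adjusted p = 0.0587). Without the run on chromosome 8 the difference was -6.82 points and passed it (exact adjusted p = 0.041).

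**Figure D5:**
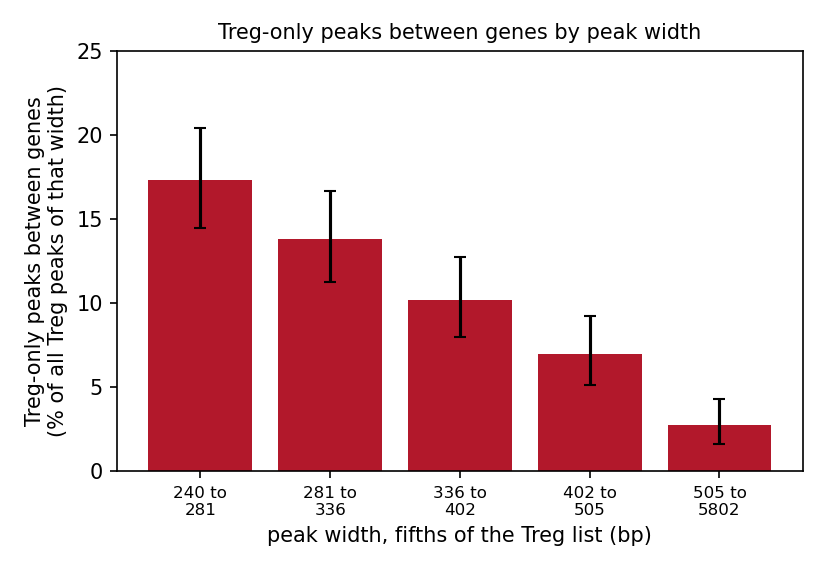
Intergenic Treg-only peaks as a share of all Treg peaks on chromosomes 1 to 19 (vertical axis, %, with 95% Clopper-Pearson intervals) in 5 groups of equal number by peak width (horizontal axis, bp). The share goes from 17.3% among the narrowest to 2.74% among the widest, while among Treg-only peaks alone it goes from 26.9% to 17.5%.

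Just 19 intergenic Treg-only peaks were over 500 bp wide, and the 12 widest were 595 to 1150 bp. Of these, 2 belonged to the run on chromosome 8 (1150 and 651 bp) and 2 more lay on the same chromosome beside the predicted genes Gm51591 (911 bp wide, 2221 bp away) and Gm51572 (643 bp wide, 1729 bp away). A peak 895 bp wide (chromosome 11, 99825384 to 99826278) lay between the predicted gene Gm11564 and 2300003K06Rik at 10165 and 11317 bp. Others stood between Aadacl4fm5 and Vps13d (chromosome 4, 718 bp wide) and between the olfactory receptor genes Olfr297 and Olfr295 (chromosome 7, 691 bp). One lay between the potassium channel gene Kcnh7 and Fign (chromosome 2, 608 bp), and one between Med13l and Tbx3 (chromosome 5, 605 bp). The rest were past Fgf14 near the end of chromosome 14 (604 bp), in the Erbb4 to Ikzf2 interval described above (598 bp), and between Rgs20 and Atp6v1h (chromosome 1, 595 bp). None of the 12 had a gene of the T cell lists within 100 kb.

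Where the gene table gave a strand for the nearest protein-coding gene within 100 kb, 95 of the intergenic Treg-only peaks lay upstream and 78 downstream, with no strand for 49. For conventional-only peaks between genes the counts were 129, 111 and 60, and for shared peaks 107, 83 and 58. These counts were not tested.

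Peaks near the limits of the rule show what it kept and left out. The 2 intergenic Treg-only peaks closest to a conventional midpoint were at Tpst2 (1262 bp) and Gsk3a (1500 bp), a kinase of the same family as the Wnt pathway kinase Gsk3b. The 2 left out most narrowly lay 861 and 993 bp from one. At the gene-end limit the closest peaks kept were 1020 bp from Gimap7, a GTPase gene of lymphocytes (chromosome 6, 48725412 to 48725900), and 1048 bp from Gm39293, and those left out were 872 bp from Gm40369 and 886 bp from a tRNA gene near Hes7. The Gimap7 peak had a conventional midpoint 2307 bp away, and Gimap7 carried 2 shared Treg peaks.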

How the data were processed

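Tcf1 ChIP-seq peak lists of 1 conventional and 1 Treg library were used as the authors deposited them, per sample. Tools listed in the submitters' processing notes are MACS2 2.1.1, Bowtie2 2.3.4.1 and FastQC, and the build is mm10. The filter, the control and the calling threshold are not given in the sources used here, and a threshold that follows depth can change which peaks are listed and how wide they are. Each list has 3 columns of positions, printed here as 1-based coordinates.

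Genes came from a RefSeq table of GRCm38.p6, the assembly of mm10, with 49943 gene spans, 21887 of them protein-coding. Strand was read from a RefSeq promoter table, which gave it for part of the genes. None of the 336 peaks overlapped a sequence in the RefSeq promoter or miRNA tables, so no sequence is printed and no motif was searched. Counts of peaks in each class entered two-sided Fisher's exact tests with Benjamini-Hochberg adjustment over 14 tests and a threshold of 0.05, in Python 3.11.15 with scipy 1.17.1, pandas 2.3.3, numpy 2.4.6 and statsmodels 0.14.6. Classification and tests were checked on simulated data of a simple form, with planted partners that overlapped and independent counts. The check does not cover shares as small as those of T cell genes, or peaks in runs. Of 342 entries in 14 gene lists, 2 symbols were unmatched.

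The peaks, lists and tests were chosen with earlier results of these data known. Genes were named by rule: the 12 widest peaks, the 5 most remote, genes nearest to 2 or more peaks, up to 5 genes a list, peaks at the limits of the rule, and runs of 3 or more. Others are said to be picked after their values were seen. The 45 peaks of this kind on chromosomes X (34) and Y (11) fall outside the rule. Alternatives covered the overlap rule, the gene set, the gene-end margin, distance limits, peak width and close peaks counted once. Added after seeing the data were leaving out the run on chromosome 8, a conventional list cut to the length of the Treg list, and leaving out peaks without a gene within 100 kb.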

Additional observations from a re-analysis of the deposited data

How the results depend on the processing

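No paired analysis was possible because each cell type has 1 library. The number of intergenic Treg-only peaks was 100 with widths over the list's median alone, and 269 to 467 under the other alternatives tried. Distances over 100 kb and gaps over 200 kb kept direction and call under every alternative that left these limits in place, against both classes (14.2 to 21.7 and 8.95 to 16.3 points). They also kept both with a distance limit of 50 kb (20.6 and 23.5 points) and a gap limit of 100 kb (21.4 and 23.3 points). Among peaks wider than the median of their list these differences lost their call: noncoding nearest genes (11.6 points from conventional-only, 9.93 from shared peaks), genes with a shared peak (-7.62 from conventional-only), neighbouring peaks (-1.70 from conventional-only, -1.36 from Treg-only peaks at or in genes) and T cell genes (-4.61 from conventional-only). Narrow peaks were also removed there as neighbours and as shared peaks of genes. With protein-coding genes alone defining what lies between genes, noncoding nearest genes against shared peaks (5.41 points) and neighbouring peaks (-5.47 and -2.16) lost it, as did noncoding nearest genes against shared peaks with a 5000 bp margin (5.16). T cell genes against conventional-only peaks lost it among peaks with a gene within 100 kb (-5.40 points).

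Against Treg-only peaks at or in genes, genes with a shared peak changed sign among the wider peaks (3.27 points), at a 5000 bp midpoint limit (0.277), with protein-coding genes alone (1.25) and among assigned peaks (4.89). They passed the threshold with a 5000 bp margin (-5.80, exact adjusted p = 0.0215) and a 20 kb limit (-6.43, exact adjusted p = 0.00153). T cell genes changed sign in the same 4 alternatives (0.433, 0.312, 0.582 and 1.14) and without the run on chromosome 8 (0.0395). Width passed with the 5000 bp midpoint limit (-6.97 points) and without that run (-6.82). The causes were not tested. The planned comparison of sequence features and its alternative were not run, since no genome was used here. Depth is unknown, which limits every statement on a peak found in 1 list alone.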

Other observations

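Some gene families not typical of T cells were seen next to intergenic Treg-only peaks. The families below were chosen after that was seen, so no test was made. Olfactory receptor genes were the nearest protein-coding gene within 100 kb for 5 of 336 peaks, against 1 of 348 conventional-only and 1 of 290 shared peaks between genes. Vomeronasal receptor genes, for pheromone sensing, were nearest to 4, 1 and 0 in the same order. The 8 families listed were olfactory and vomeronasal receptors, defensins, cystatins, cadherins, oocyte homeobox, Reg lectin and keratin-associated genes. Over all 8 the counts were 13 (3.87%), 2 (0.575%) and 1 (0.345%), and 7 of 994 (0.704%) for Treg-only peaks at or in genes. Cystatin and Reg lectin genes were nearest to 0 of the 336 peaks. No protein-coding gene lay within 100 kb of 114 of the 336 peaks, against 48 conventional-only and 42 shared peaks between genes. The share of these families among all protein-coding genes was not counted, so no excess can be read from these counts. The nearest protein-coding gene at any distance was a model with a Gm or Rik name for 46 intergenic Treg-only peaks (13.7%), 10 of them in the run on chromosome 8, against 16 (4.60%) and 19 (6.55%).

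Chromosomes X and Y, which the rule leaves out, held 34 and 11 further Treg-only peaks between genes.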
